A study of Mus musculus with 2 samples.

Results

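Open chromatin was described at 8 genes for adaptor proteins of T cell receptor signalling: Lat, Lcp2, Grap2, Themis, Skap1, Sh2d1a, Trat1 and Ubash3a. They are 8 of 21827 genes annotated as protein-coding (GENCODE M21, mouse build mm10) and were chosen by name for their role in the pathway. For each gene, every deposited peak and footprint within the gene body and 25 kb on either side was taken, a stretch called the locus below. The 8 loci covered 1149 kb in all and did not overlap each other.

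The measurements were DNase-seq, which finds open chromatin by sequencing the ends left where the nuclease DNase I cuts nuclear DNA. The only group was naive resting CD8 T cells, primary cells of male adult mice aged 2 months of the hybrid strain B6CASTF1/J, with no treatment or added allele in the labels. The group had 2 libraries, named biological replicates 2 and 3. The labels give both the same donor and each its own biosample. Separate animals were neither stated nor excluded by them, so the spread between the libraries may be technical.

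Adaptor proteins mostly lack enzyme activity and hold other signalling proteins together. When a T cell receptor binds its ligand, the kinase Lck and then the kinase Zap70 act, and Zap70 phosphorylates Lat, a scaffold in the plasma membrane. Grap2 (the protein GADS) joins Lat to Lcp2 (the protein SLP-76), and the assembled complex leads to calcium release and to the Ras pathway. Naive CD8 T cells need this chain to respond to antigen.

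The 2 libraries differed in the number of peaks. Each came with a stricter peak list, whose peaks all held a position with a deposited false discovery rate of at most 0.001, and a permissive list with a limit of 0.05. The stricter list held 38223 peaks in replicate 2 and 17061 in replicate 3. The deposited signal of a peak rose in whole steps within each library. If it was scaled to 1e+06 tags, replicate 2 held 1.34e+08 tags and replicate 3 held 2.21e+07. Absence from a list of replicate 3 is reported below as absence from that list, and the part of depth in it was not tested. Of the marker genes for the labelled cell, a stricter promoter peak in replicate 2 was found for 5 of 6 measured T cell genes, 2 of 3 CD8 lineage genes and 3 of 5 naive cell genes. In replicate 3 the counts were 0 of 6, 2 of 3 and 0 of 5. Over all protein-coding genes the shares were 50.5% in replicate 2 and 40.9% in replicate 3. With the permissive lists, 3 of 6, 2 of 3 and 1 of 5 had a promoter peak in both libraries, against 45.5% of all genes. Ccr7, the lymph node homing receptor of naive T cells, had a promoter signal of 6.54 in replicate 2, in the strongest decile, where 99.7% of peaks were in the permissive list of replicate 3. None of the 29 permissive peaks of replicate 2 in its locus had a counterpart there, since replicate 3 had 0. In replicate 2 a promoter peak was found for 0 of 3 CD4, 0 of 7 B cell, 0 of 4 NK cell, 0 of 5 erythroid and platelet genes and 2 of 7 myeloid genes. A part of other cells in the results below was not tested.

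A promoter peak was an overlap with the 1000 bp on either side of an annotated start site. It was present in the stricter lists of both libraries for 3 of the 8 members (Lat, Grap2 and Themis), against 40.9% of all protein-coding genes. In replicate 2 it was present for 5 of the 8, with Sh2d1a and Ubash3a added, against 50.5% of all genes. Lcp2, Skap1 and Trat1 had no stricter promoter peak in either library. These counts lie near the background and are not a result about the members. Over the whole locus, promoters included, 7 of the 8 members held 1 or more stricter peaks in replicate 2 (background 73.2%) and 5 of the 8 in replicate 3 (background 64%). Trat1 was the member without any in either library. The member loci had a median length of 93.3 kb, against 67.4 kb over all genes, and these shares were not adjusted for length.

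**Figure D1:**
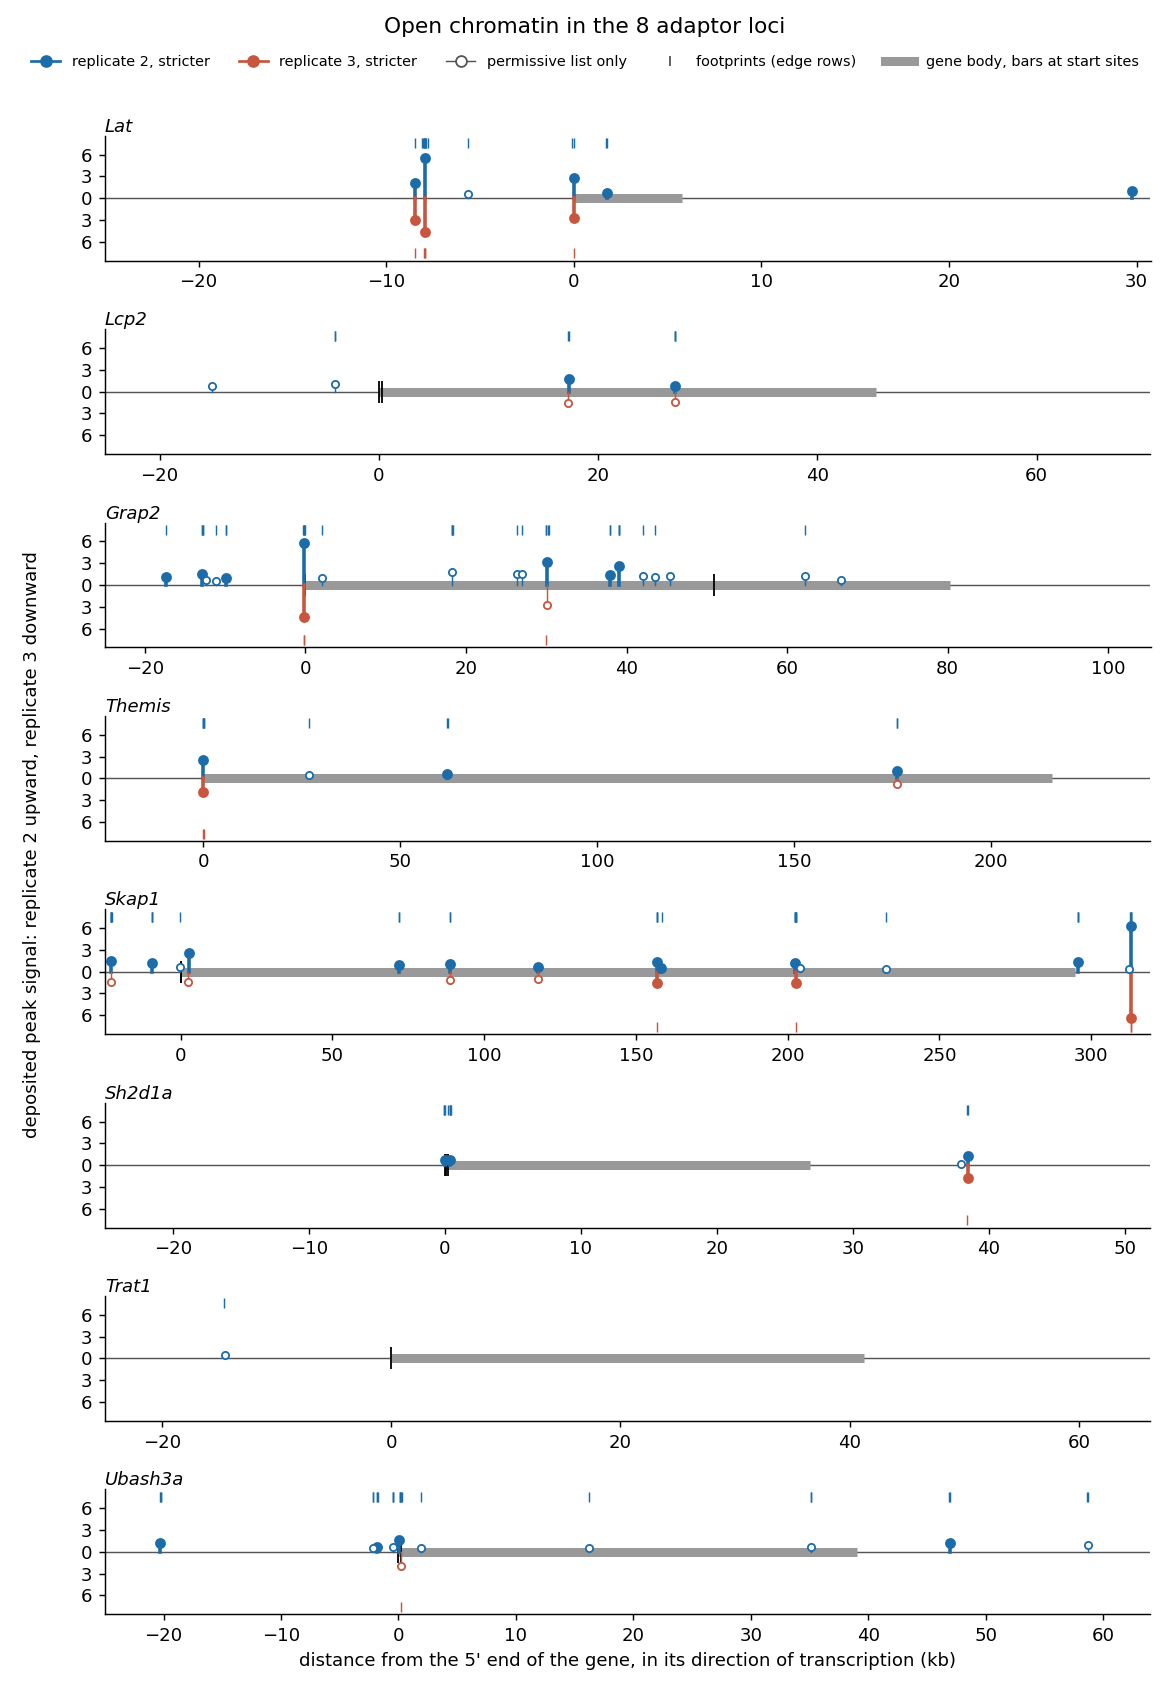
Each panel shows 1 locus, with distance from the 5′ end of the gene in kb on the x axis and the deposited peak signal on the y axis, replicate 2 upward and replicate 3 downward. Filled circles are stricter peaks, open circles peaks of the permissive list alone, ticks at the panel edges are footprints, and the grey bar is the gene body with black bars at annotated start sites. The 35 stricter peaks of replicate 2 and 9 of replicate 3 were spread unevenly, from 11 and 3 at Skap1 to 0 and 0 at Trat1.

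Lat, the membrane scaffold on which the complex forms, had an open promoter at like signal in both libraries. The promoter peak (chr7:126369441-126369680) had a signal of 2.78 in replicate 2 (95% exact Poisson interval of its steps 2.51 to 3.08) and 2.76 in replicate 3 (2.11 to 3.54), and the intervals overlapped. All such intervals cover counting error only. The signal stood at percentile 76.5 of the stricter list of replicate 2 and at percentile 43.5 of that of replicate 3, where weak peaks are missing. The sequence printed here is the part of the peak upstream of the gene, on the minus strand of mm10, shown because it carries a long footprint. A footprint is a short stretch inside open chromatin that was protected from cutting. Capitals in all sequences printed here mark bases inside footprints of replicate 2, and all are letters of the C57BL/6J reference, since the alleles of the cross were not read.
Lat promoter, chr7:126369571-126369680, minus strand: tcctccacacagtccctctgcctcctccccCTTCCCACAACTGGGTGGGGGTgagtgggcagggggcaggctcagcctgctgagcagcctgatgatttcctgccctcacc

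The footprint of replicate 3 in this peak lay at the very start of the gene (chr7:126369559-126369571) and read CACAGCTTCCTGT on the minus strand, with the ETS letters AGGAAG on the plus strand. It met a footprint of replicate 2 (chr7:126369549-126369559) at position 126369559 alone, and the ETS letters lay outside that footprint. Lat had 1 more weak peak in an intron, with a signal of 0.776 in replicate 2, and 1 peak between genes of 1.00, both in replicate 2 alone. The strongest peak of the locus in each library belonged to a neighbour. Spns1, a lysosomal lipid transporter whose start lies 7.87 kb from that of Lat, had promoter peaks of 5.51 and 2.06 in replicate 2 and 4.61 and 3.03 in replicate 3.

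Lcp2, the adaptor SLP-76 that binds phospholipase C gamma and Vav1, had no promoter peak in any of the 4 lists. No position within 1000 bp of its 2 annotated start sites had a listed false discovery rate in either library, while 55.2% of genes had one in replicate 2 and 46.5% in replicate 3. The Lcp2 promoter was poor in CpG, with an observed over expected ratio of 0.137. Its stricter peaks lay inside the gene. An intron peak 17082 bp downstream of the start (chr11:34064141-34064360) had a signal of 1.70 in replicate 2 (1.49 to 1.94) and 1.54 in the permissive list of replicate 3 (1.06 to 2.15). A second intron peak (chr11:34073931-34074006) had 0.828 in replicate 2 (0.681 to 0.997) and 1.40 in the permissive list of replicate 3 (0.951 to 1.99). Neither was in the stricter list of replicate 3. Their lowest false discovery rates in replicate 3 were 0.000762 and 0.000818, both under 0.001. A position under that limit was thus not enough for a place in the stricter list, and the full rule of that list is not known here. Both also lie within the body of 4930469K13Rik, an overlapping gene, so the gene they belong to cannot be told from position. The promoter without a peak and the 2 intron peaks are shown together, with the promoter taken from RefSeq on GRCm38 as the 250 bases before its start.
Lcp2 promoter, no peak, chr11:34046678-34046927, plus strand: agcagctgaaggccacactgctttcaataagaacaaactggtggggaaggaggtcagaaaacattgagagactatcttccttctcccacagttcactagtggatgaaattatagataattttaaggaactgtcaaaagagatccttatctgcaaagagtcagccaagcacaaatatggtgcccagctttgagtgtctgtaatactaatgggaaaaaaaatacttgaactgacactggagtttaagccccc
Lcp2 intron peak, chr11:34064141-34064360, plus strand: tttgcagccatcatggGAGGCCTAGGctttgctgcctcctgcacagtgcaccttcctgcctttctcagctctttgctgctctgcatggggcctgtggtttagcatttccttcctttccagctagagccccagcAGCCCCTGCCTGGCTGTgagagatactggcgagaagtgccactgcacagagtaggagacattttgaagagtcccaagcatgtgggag
Lcp2 intron peak, chr11:34073931-34074006, plus strand: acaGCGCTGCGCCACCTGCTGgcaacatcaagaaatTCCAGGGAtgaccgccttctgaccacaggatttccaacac

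The first intron peak held AGGAAG at 2 places, the letters of the ETS family, and TGTGGTT at 1 place, those of the RUNX family. The ETS proteins and Runx3 are transcription factors of T cells, and Runx3 is tied to the CD8 lineage. The promoter letters without a peak also held AGGAAG, together with CTTTGA of the TCF and LEF factors, AGATAA of the GATA factors and the E-box CAGCTG. A match in letters is a description and not a site of binding.

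Grap2, the adaptor GADS, had the strongest promoter peak of the 8 members and the most permissive peaks in replicate 2. Its promoter peak (chr15:80572278-80572620) lay at the upstream of 2 annotated start sites, with a signal of 5.82 in replicate 2 (5.42 to 6.24) and 4.38 in replicate 3 (3.55 to 5.35). The intervals of the 2 libraries did not overlap there. The ratio of replicate 3 to replicate 2 was 0.753, against a median of 1.10 over all 16253 shared peaks, whose percentiles 5 and 95 were 0.711 and 1.78. The other start site, at position 80623483 and the one given in RefSeq, had no peak and no listed false discovery rate in either library. Replicate 2 had 5 footprints around the upstream start and replicate 3 had 2. The sequence is shown because it is the strongest member promoter and 1 of its footprints covers RUNX letters.
Grap2 upstream promoter, chr15:80572301-80572593, plus strand: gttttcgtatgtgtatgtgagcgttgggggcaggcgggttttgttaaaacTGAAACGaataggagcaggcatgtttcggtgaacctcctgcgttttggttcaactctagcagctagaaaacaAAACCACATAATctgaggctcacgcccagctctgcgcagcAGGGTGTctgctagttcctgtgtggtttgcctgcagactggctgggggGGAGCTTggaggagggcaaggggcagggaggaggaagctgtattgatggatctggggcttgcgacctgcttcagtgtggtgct
Grap2 intron peak, chr15:80611542-80611780, plus strand: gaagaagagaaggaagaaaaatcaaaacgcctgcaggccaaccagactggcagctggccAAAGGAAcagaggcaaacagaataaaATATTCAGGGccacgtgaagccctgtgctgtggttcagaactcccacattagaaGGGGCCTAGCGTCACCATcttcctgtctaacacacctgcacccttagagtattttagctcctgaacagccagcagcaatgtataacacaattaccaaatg

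The promoter peak held TGTGGTT at 2 places, 1 on each strand, and the one on the minus strand lay in a footprint of replicate 2 (AAACCACATAAT on the plus strand, chr15:80572423-80572434). No footprint of replicate 3 held those letters. Inside the gene, 3 intron peaks had signals of 3.16, 1.43 and 2.65 in replicate 2. The strongest of them (chr15:80602481-80602920) had 2.76 in the permissive list of replicate 3, and the other 2 were absent from both lists of replicate 3. The peak of 2.65 (2.38 to 2.94), printed above, was the strongest of the 35 that was in neither list of replicate 3. Of all replicate 2 peaks in its decile of signal, 93.2% were found in the permissive list of replicate 3. Grap2 also had 11 peaks in the permissive list of replicate 2 alone, the strongest an intron peak of 1.82. Enthd1, a neighbour read in the opposite direction, held 3 further peaks of 1.16, 1.51 and 0.895 in replicate 2, 1 of them at its promoter. In replicate 2 the Grap2 locus thus had 7 stricter peaks and 32 footprints, more peaks than 85.8% of genes had in their loci. That rank is not adjusted for length, and the locus was 130 kb long against a median of 67.4 kb over all genes.

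Themis, a T cell protein needed for the selection of thymocytes, had an open promoter in both libraries although its promoter was among the poorest in CpG. The ratio of observed to expected CpG was 0.140, and 1.36% of the 5456 genes in the class of lowest ratio had a promoter peak in both libraries. The peak (chr10:28668261-28668560) had a signal of 2.59 in replicate 2 (2.32 to 2.88) and 1.90 in replicate 3 (1.37 to 2.56). Those intervals overlapped. It held 5 footprints in replicate 2 and 2 in replicate 3, and neither of the latter overlapped one of replicate 2. The part upstream of the start is shown with both intron peaks.
Themis promoter, chr10:28668261-28668359, plus strand: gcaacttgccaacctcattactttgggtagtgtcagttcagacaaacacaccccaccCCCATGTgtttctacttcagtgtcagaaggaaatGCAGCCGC
Themis intron peak, chr10:28730259-28730393, plus strand: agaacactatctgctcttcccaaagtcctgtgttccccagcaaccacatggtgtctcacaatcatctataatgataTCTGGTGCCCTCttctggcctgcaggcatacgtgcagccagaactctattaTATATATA
Themis intron peak, chr10:28844261-28844440, plus strand: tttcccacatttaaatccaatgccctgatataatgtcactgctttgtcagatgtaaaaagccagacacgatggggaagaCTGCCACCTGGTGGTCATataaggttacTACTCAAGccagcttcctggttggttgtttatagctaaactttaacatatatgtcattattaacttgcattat

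The first intron peak of Themis lay 61929 bp downstream of the start and had a signal of 0.664 in replicate 2 alone. The second lay 175953 bp downstream, with 1.01 in replicate 2 and 0.813 in the permissive list of replicate 3. The longest gap in the gene, between these peaks, held no peak of any list. Both intron peaks carried the 12 letters of the CTCF core described further on. A footprint of replicate 2 covered the core of the second peak in full and that of the first in part.

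Skap1, an adaptor that links the receptor to integrin adhesion, had the most stricter peaks of the 8 loci and the longest gene. Its 345 kb locus held 11 in replicate 2 and 3 in replicate 3. It had no stricter promoter peak. The promoter of Skap1 held a peak of 0.686 in the permissive list of replicate 2 (0.553 to 0.842) and none in replicate 3. The nearest stricter peak lay in an intron, 2499 bp downstream of the start (chr11:96467061-96467300), with 2.53 in replicate 2 (2.27 to 2.81) and 1.40 in the permissive list of replicate 3 (0.951 to 1.99). No footprint of either library lay in it. A pair of distant intron peaks was in both stricter lists. The peak at 156699 bp had 1.40 in replicate 2 and 1.54 in replicate 3, and the peak at 202439 bp had 1.19 and 1.49. The first of these and the peak near the start are shown, the latter for its lack of any footprint.
Skap1 intron peak near the start, chr11:96467061-96467300, plus strand: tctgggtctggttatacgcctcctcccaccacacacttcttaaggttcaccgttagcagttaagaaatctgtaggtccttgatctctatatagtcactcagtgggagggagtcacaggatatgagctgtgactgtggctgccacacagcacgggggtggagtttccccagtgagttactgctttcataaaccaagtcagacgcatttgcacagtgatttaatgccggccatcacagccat
Skap1 distant intron peak, chr11:96621301-96621460, plus strand: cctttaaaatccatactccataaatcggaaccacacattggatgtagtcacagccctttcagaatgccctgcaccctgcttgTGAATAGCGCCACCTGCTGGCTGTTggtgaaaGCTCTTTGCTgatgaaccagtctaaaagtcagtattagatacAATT

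Apart from the promoter of a neighbour, the other Skap1 peaks ranged in replicate 2 from 0.477 in an intron to 1.43 between genes. Among them, 1 lay over an untranslated part of an exon, with 0.709 in replicate 2 and 0.994 in the permissive list of replicate 3. The strongest peak in the locus was the promoter of Snx11, a sorting nexin gene whose start lies 313 kb from that of Skap1, with 6.31 in replicate 2 and 6.37 in replicate 3. Apart from that promoter, the 11 stricter peaks of the locus in replicate 2 lay in introns, 1 exon and between genes.

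Sh2d1a encodes SAP, the small adaptor that couples receptors of the SLAM family to the kinase Fyn, and is the 1 member on the X chromosome. It had weak promoter peaks of 0.649 (0.520 to 0.801) and 0.671 (0.540 to 0.825) in replicate 2 and no promoter peak in either list of replicate 3. The signals were not adjusted here for the 1 X copy of male cells and stood at percentiles 17.5 and 19.1 of the list. Peaks of the second decile of replicate 2, where both fall, were found in the permissive list of replicate 3 in 19.4% of cases. The region of this locus found in both libraries lay 38256 bp downstream, in an intron of Tenm1, with 1.20 in replicate 2 (1.02 to 1.40) and 1.81 in replicate 3 (1.29 to 2.46). The ratio of 1.504 was the highest of the 9 shared regions.
Tenm1 intron peak in the Sh2d1a locus, chrX:42540821-42541000, plus strand: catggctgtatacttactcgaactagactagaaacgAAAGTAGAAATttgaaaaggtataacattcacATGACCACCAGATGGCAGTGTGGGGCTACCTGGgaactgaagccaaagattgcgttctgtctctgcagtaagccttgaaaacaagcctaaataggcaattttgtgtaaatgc

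Trat1 encodes TRIM, a transmembrane adaptor associated with the receptor. It had no stricter peak within 25 kb in either library, although 73.2% of genes had 1 or more in replicate 2 and 64% in replicate 3. Its 1 permissive peak, in replicate 2, lay upstream, at -14471 bp from the start, with a signal of 0.485 (0.374 to 0.618). The lowest listed false discovery rate of replicate 2 in the locus was 0.000863, under the 0.001 that every stricter peak met. No position near the start had a listed false discovery rate in either library.

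Ubash3a encodes STS-2, a regulator that dampens receptor signalling. Its promoter peak (chr17:31207801-31208080) had 1.60 in replicate 2 (1.39 to 1.83). In replicate 3 a partly overlapping peak (chr17:31208021-31208192) was in the permissive list alone, with 1.90 (1.37 to 2.56). The lowest false discovery rate of replicate 3 over the replicate 2 peak was 0.00467. The call differed between the libraries while the signal intervals overlapped, and a difference in signal was not tested. With the permissive lists, 4 of the 8 members had a promoter peak in both libraries, against 45.5% of all genes. The permissive count was 6 of 8 in replicate 2, with Skap1 added (background 54.3%), and 4 of 8 in replicate 3 (background 45.6%). The other stricter peaks were found in replicate 2 alone, with 1.19 in an intron of Tmprss3, 0.686 at -1855 bp from the start and 1.21 at 46701 bp downstream. Ubash3a had 24 footprints in replicate 2 and 1 in replicate 3.

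**Figure D2:**
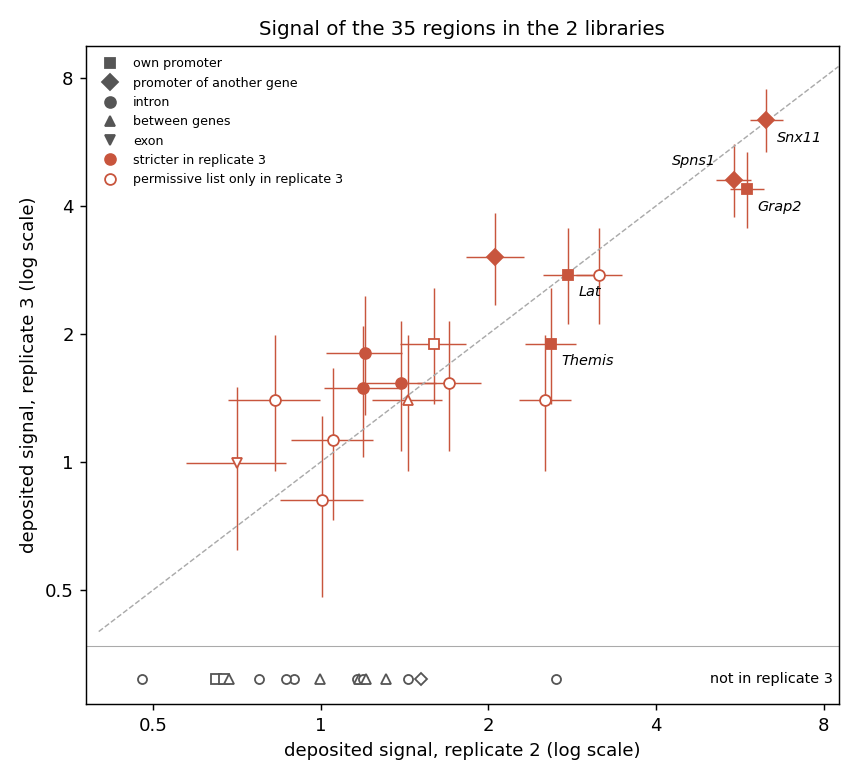
The deposited signal of the 35 regions is plotted for replicate 2 on the x axis and replicate 3 on the y axis, both on log scales, with 95% exact Poisson intervals of the signal steps and a dashed line at equal signal. Filled red symbols are the 9 regions in the stricter list of replicate 3, open red symbols the 9 in its permissive list alone, and the row at the bottom the regions found in neither. Regions found in both libraries lie near the line, with ratios from 0.733 to 1.504.

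Over the 8 loci, the stricter lists held 35 peaks in replicate 2 and 9 in replicate 3 (mean 22 ± 18.4, SD, n = 2). All 9 peaks of replicate 3 overlapped a peak of replicate 2, which gave 35 regions with 9 in both libraries. At least 1 region in both libraries was present for 5 of the 8 members (Lat, Grap2, Themis, Skap1 and Sh2d1a), against a background of 63.9%. By position, 6 regions lay at a promoter of the member itself, 4 at the promoter of another gene, 18 in introns, 1 in an exon and 6 between genes. Of the regions in both libraries, 3 lay at member promoters, 3 at promoters of neighbours and 3 in introns, and 0 of the 6 between genes were in both.

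Member peaks of replicate 2 were found in the stricter list of replicate 3 in 25.7% of cases (9 of 35, Wilson 95% interval 14.2 to 42.1), against 42.5% of all replicate 2 peaks. At the detection share of their own deciles of signal, 13.4 of the 35 would have been found, or 38.4%, which lies inside the interval. In the permissive list of replicate 3 the share was 51.4% (18 of 35, 35.6 to 67.0), against 58.7% of all peaks and 58.2% at their deciles. The 3 member-locus peaks of the strongest decile (the promoters of Grap2, Spns1 and Snx11) were all found. All 9 permissive-only peaks of replicate 3 overlapped a stricter peak of replicate 2, while 0 of the 27 permissive-only peaks of replicate 2 overlapped any peak of replicate 3.

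**Figure D3:**
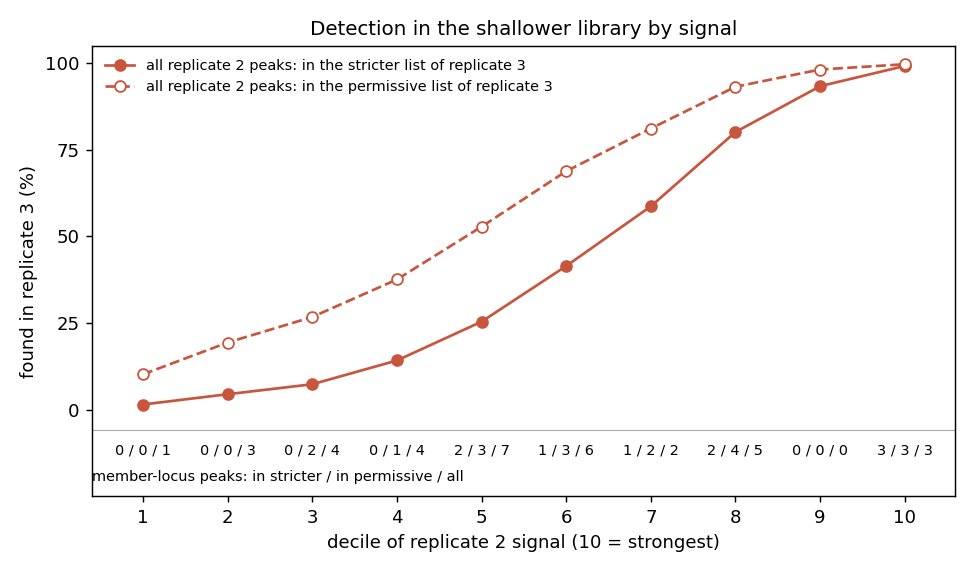
The x axis gives the decile of signal of all stricter peaks of replicate 2 and the y axis the percentage found in the stricter (filled) or permissive (open) list of replicate 3. Numbers under the curves count member-locus peaks found in the stricter list, found in the permissive list, and all. Detection of all peaks in the stricter list rose from 1.48% in the weakest decile to 99.2% in the strongest. Of the 5 member peaks of the eighth decile, 2 were in the stricter list, against 80.1% of all peaks there. In the permissive list 4 of those 5 were found, against 93.2%. The 3 member peaks of the strongest decile were found in both lists.

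Footprints were far more numerous in replicate 2. The loci held 133 in replicate 2 and 16 in replicate 3 (mean 74.5 ± 82.7, SD, n = 2), each 7 to 37 bases long with a median of 8 in both libraries. In replicate 2, 63.2% lay inside stricter peaks against 75.4% of all footprints. In replicate 3, 81.2% did against 89.6%. Of the 16 footprints of replicate 3, 9 overlapped one of replicate 2 (56.2%, Wilson 95% interval 33.2 to 76.9), against 66.9% of all. At Skap1, the locus with most footprints in replicate 2, the counts were 34 and 4, and at Trat1 they were 1 and 0.

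The letters under the peaks were searched on both strands for 8 short motifs. TGTGGTT, of the RUNX family, was in 7 of the 35 regions (20%, Wilson 95% interval 10.04 to 35.9), against 6.65% of all stricter peaks of replicate 2. The Grap2 locus held 4 of those 7, and Lcp2, Themis and Skap1 held 1 each. Away from promoters it was in 5 of 25 regions (20%, 8.86 to 39.1), against 9.35% of all such peaks, which lies inside the interval. At promoters it was in 2 of 10 regions (20%, 5.67 to 51.0), both in the Grap2 locus, against 3.04% of all promoter peaks. Without Grap2, a setting added after seeing the data, the count was 3 of 28 (10.7%, 3.71 to 27.2). AGGAAG of the ETS family was in 10 regions (28.6%), against 29.97% of all peaks. GGGCGG, the letters of KLF and SP factors that are common in CpG-rich promoters, was in 4 (11.4%), against 31.99%. At the 10 promoter regions it was in 1 (10%), against 58.4% of all promoter peaks. The longer ETS letters CCGGAAG were in 1 region and CTTTGA of TCF and LEF factors in 3. The GATA letters AGATAA were in 1, the E-box CAGCTG in 4 and TGANTCA of AP-1 in 1 (2.86%, against 5.04% of all peaks). With 200 bp centred on each peak, TGANTCA was in 4 (11.4%, against 4.91%). The 250 bases before the RefSeq start were available for 6 of the 8 members, not for Skap1 and Sh2d1a. There TGTGGTT was in none, against 5.08% of 27025 RefSeq promoters, and AGGAAG in 2, against 32.3%. For Grap2 this was the start without a peak, while its open upstream promoter held TGTGGTT at 2 places.

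Some regions away from promoters, called distal, held letters of CTCF, the zinc finger protein that marks loop ends and insulators. The core of its consensus, 12 letters long with 8 of them fixed, was added to the search after the sequences had been seen. It was in 9 of the 25 distal regions (36.0%, Wilson 95% interval 20.2 to 55.5), against 26.0% of all 21863 distal peaks of replicate 2, and in 0 of the 10 promoter regions (upper bound 27.8%), against 4.31%. The share was near that of all distal peaks. Skap1 had 4 of the 9, Themis 2, and Lcp2, Grap2 and Sh2d1a 1 each, while Lat and Ubash3a had 0. A footprint of replicate 2 overlapped 8 of the 9 sites in part or in full, against 92.0% of such sites in all distal peaks. A footprint of replicate 3 overlapped 0. Of the 9 sites, 6 read as follows, 5′ to 3′ on their own strand, and the capitals here mark the whole core.
Lcp2, chr11:34073941-34073952, minus strand: CCAGCAGGTGGC
Themis, chr10:28730341-28730352, minus strand: CCAGAAGAGGGC
Themis, chr10:28844342-28844353, minus strand: CCACCAGGTGGC
Skap1, chr11:96621391-96621402, minus strand: CCAGCAGGTGGC
Skap1, chr11:96760201-96760212, plus strand: CCACTAGGTGGC
Sh2d1a locus, chrX:42540893-42540904, plus strand: CCACCAGATGGC

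Both intron peaks of Themis, the second intron peak of Lcp2 and the region of the Sh2d1a locus found in both libraries were thus peaks with CTCF letters. The peaks in the introns of Grap2, the first intron peak of Lcp2 and the peak near the start of Skap1 held none. Distal member regions with the core were in a list of replicate 3 in 6 of 9 cases and those without it in 5 of 16. Over all distal peaks the shares were 65.5% and 43.9%, with median signals of 1.19 and 0.992 in replicate 2.

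The promoters of the members were poor in CpG. Their observed over expected ratio ran from 0.137 at Lcp2 to 0.453 at Skap1, with a median of 0.280, against 0.461 over all genes. Lcp2 and Themis fell in the lowest of 4 equal classes of genes by this ratio and the other 6 in the second, with none in the upper classes. Promoter peaks in both libraries were present for 1.36% of genes in the lowest class, 23.8% in the second, 63.4% in the third and 74.9% in the highest. In replicate 2 the shares were 4.84%, 37.3%, 75.1% and 84.7%. Of the members, 1 of 2 in the lowest class and 2 of 6 in the second had a peak in both. Skap1, with the highest ratio of the 8, was among the members without a stricter promoter peak.

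**Figure D4:**
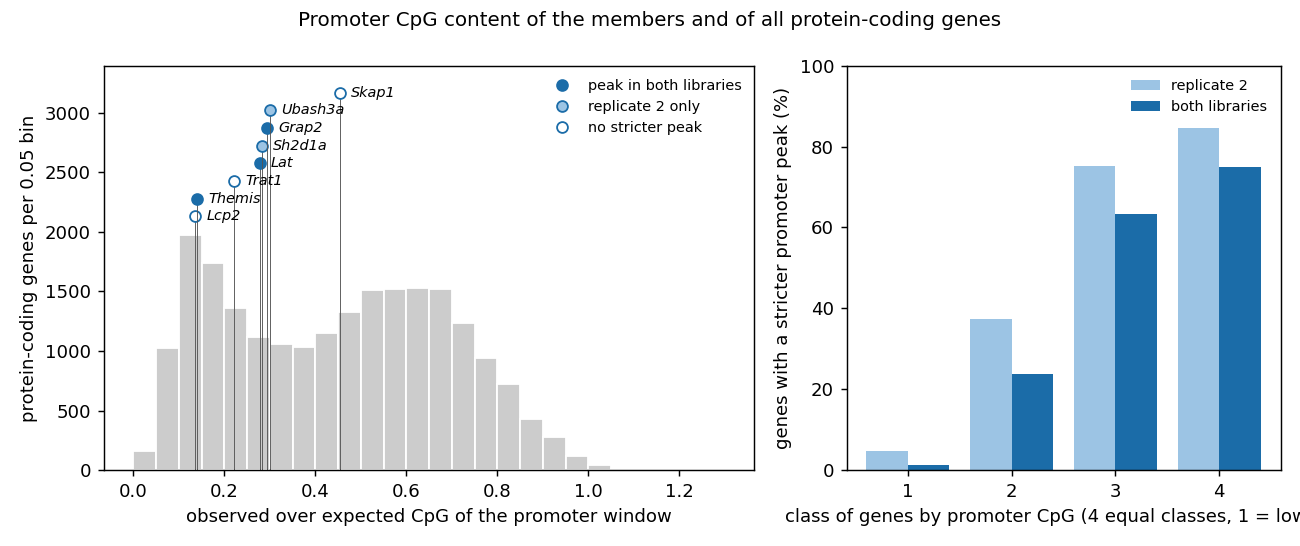
On the left, grey bars count protein-coding genes by the observed over expected CpG ratio of the promoter window, and circles above mark the 8 members, filled where a stricter promoter peak was in both libraries, pale where in replicate 2 alone and open where in neither. On the right, bars give the percentage of genes in each of 4 equal classes of that ratio with a stricter promoter peak. All 8 members lie in the lower 2 classes, between 0.137 and 0.453.

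Related genes, several of them used in other cell types, were set beside the members. Of 13 relatives, 6 had a stricter promoter peak in both libraries, 2 in replicate 2 alone and 5 in neither. Over all protein-coding genes, 40.9% had one in both libraries and 50.5% in replicate 2. Grb2, the widely used homologue of Grap2, had 9.07 in replicate 2 and 6.73 in replicate 3, and Grap had 3.16 and 2.76. Lat2, the scaffold of B cells and mast cells, and Blnk, the B cell counterpart of Lcp2, had no promoter peak, nor did Clnk. Skap2, the broadly expressed homologue, had 5.39 and 4.70 where Skap1 had no stricter promoter peak. The other transmembrane adaptors Pag1 and Lax1 had 3.18 and 1.87 in replicate 2 and 5.10 and 2.17 in replicate 3. Sit1 had 1.70 in replicate 2 alone, and Trat1 none. Themis2 had 0.739 and 1.94, and Ubash3b had 0.791 in replicate 2 and 1.084 in the permissive list alone of replicate 3. Sh2d1b1 and Sh2d1b2, the relatives of Sh2d1a used by NK cells, had none.

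In the wider receptor pathway, 15 of 31 genes had a promoter peak in both libraries (background 40.9%), and 28 of 31 had one in replicate 2 (background 50.5%). By mean percentile over the libraries, the highest promoter signals belonged to Cbl, a ubiquitin ligase, with 10.4 in replicate 2 and 9.89 in replicate 3, Nck1, an adaptor to the cytoskeleton, with 8.33 and 9.26, Bcl10, a carrier to NF-kappaB, with 10.2 and 8.40, and Cblb, with 7.55 and 7.23. Grb2, given above, came next. The genes without a stricter promoter peak were Cd2, Ptprc and Fyb. The Grap2 promoter, the strongest of the members, stood below the signals of those 4 genes in both libraries.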

How the data were processed

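The data were 2 DNase-seq libraries of 1 group. Per the labels, all lists are on mm10, and per the notes deposited with each library they were derived from that library's own alignments, without pooling. For the programs behind alignments, peaks and footprints, the sources used here give no name. The authors deposited a signal value per peak whose scaling is unstated. Signals below 2 were whole multiples of 1 step per library, within 0.05 of a step, in 25650 of 25650 stricter peaks of replicate 2 and 4539 of 4539 of replicate 3. The authors deposited FDR values (q-values) per stretch of positions, up to 0.05. Footprint lists carry a constant value, so only their intervals were used.

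Peaks overlapped by 1 bp or more. Signal intervals are exact Poisson intervals on the steps, which assume that a step is 1 tag, and shares carry Wilson 95% intervals. PCR copies are not independent, so both cover counting error only. Percentiles are within a library's stricter list. Expected CpG is the product of the C and G counts over the window length, averaged over start sites. Sequences came from GRCm38, and promoters without a peak from RefSeq. Footprints were extended by 5 bp for motif search. The genes named were the members, their 13 relatives, neighbours with a promoter peak in a locus and, of the pathway list, the 5 highest by percentile and those with no promoter peak. Some cell type markers were named as well. Members and lists were chosen with earlier results of these data known. With 1 group there was no test between groups. The overlap, promoter, region and motif functions were tested on simulated data with known answers. Alternatives changed the peak list, number of peaks, overlap, windows, flank and libraries. Scripts ran in Python 3.11.15 with scipy 1.17.1, pandas 2.3.3, numpy 2.4.6 and matplotlib 3.10.9.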

Additional observations from a re-analysis of the deposited data

How the results depend on the processing

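The number of members with a promoter peak in both libraries was 3 under every window, overlap and equal-number setting tried, 4 with the permissive lists, and 3 to 5 when either library was used alone (5 without replicate 3). Members with a region in both libraries numbered 4 to 7. Counts of peaks followed the list and the flank. The mean number of peaks per library in the 8 loci was 40 with the permissive lists, 10.5 with the 17061 strongest peaks of each library, 12.5 in the gene bodies alone, and 9 to 35 when either library was used alone (9 without replicate 2). Regions in both libraries numbered 18 with the permissive lists and 5 in the gene bodies. The share of member-locus peaks of replicate 2 found in replicate 3 was 50% at equal numbers of peaks, against 25.7% in the main setting. At equal numbers the same share over all peaks was not computed. The mean number of footprints was 36.5 in the gene bodies, 48.5 inside stricter peaks, and 16 to 133 when either library was used alone (16 without replicate 2). Of 48 counts for a single locus, 31 stayed within 1.5 times, and all 8 motif shares read in 200 bp stayed inside their intervals, although TGANTCA moved from 2.86% to 11.4%. With a more specific CTCF consensus of the same length 20% of distal regions matched, against 16.0% of all distal peaks of replicate 2. That 20% lies just below the interval given for the core (20.2 to 55.5). Without Skap1 33.3% held the core, and both settings were chosen after seeing the data. No paired analysis was possible because there was 1 group. Peaks of low signal were mostly missing from replicate 3, and the part of depth in this was not tested.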
